A study of Mus musculus with 2 samples.

Results

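The Wnt genes studied here were 42 of the 43346 Ensembl genes measured in the midbrain of mouse embryos. The genes were taken from a list of symbols with no threshold on a measured value, though the list was drawn up with earlier results of these data known, and all 42 symbols matched a gene in both libraries. They comprise the 19 Wnt ligands, the 10 Frizzled receptors, the 2 co-receptors Lrp5 and Lrp6, 7 secreted inhibitors of the sFRP and Dickkopf families (Sfrp1, Sfrp2, Sfrp5, Frzb, Dkk1, Dkk2 and Dkk3), the 3 R-spondins Rspo1, Rspo2 and Rspo4 and the feedback gene Axin2. The tissue came from strain B6NCrl at embryonic day 16.5, as pools of healthy embryos of mixed sex with no genotype or treatment to compare. There was 1 group of 2 biological replicates that the labels give under the same donor identifier. Replicate 2 pooled 37 embryos, whereas the labels give no number for replicate 1. Each library started from 10 ng of RNA longer than 200 nucleotides with spike-in sequences.

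Wnt proteins are secreted, lipid-modified signals that bind Frizzled receptors on nearby cells. In the branch that acts through beta-catenin, a Wnt joins a Frizzled to Lrp5 or Lrp6, the Axin complex stops degrading beta-catenin, and beta-catenin turns on genes with TCF/LEF proteins, among them Axin2. Secreted Frizzled-related proteins (sFRPs) bind Wnts, and Dickkopf proteins such as Dkk1 bind Lrp5 and Lrp6. R-spondins raise the number of receptors at the cell surface. In the embryonic midbrain, Wnt signals set up the border with the hindbrain and later act on dividing precursors, on dopamine neurons, on growing axons and on blood vessels.

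Levels are given in TPM, a relative transcript abundance corrected for length, first for replicate 1 and then for replicate 2. Values with ± are the mean and SD of the 2 libraries, and intervals are 95% counting intervals that cover counting error only. Expected counts summed to 31830355 and 36576263, so that 1 read on an effective kilobase corresponded to 0.0540 and 0.0464 TPM. Of the labelled tissue's markers, 8 of 9 midbrain genes reached 1 TPM in both libraries, with sums of 347 and 376 TPM, and En2 stayed below it. None of 7 hindbrain genes did, with Hoxb4 at 0 and sums of 1.67 and 0.93 TPM, whereas all 9 diencephalon genes did, with sums of 1291 and 994 TPM. In bulk tissue fewer cells of a type and less RNA per cell cannot be told apart. A single group allows no comparison of conditions, so no p-value is given.

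RNA of most parts of the pathway was present, and a few genes of each family held most of it. Taking 1 TPM or more in each library as detection, 28 of the 42 genes were detected, beside 62.1% of the 21474 protein-coding genes. The detected genes were 8 of 19 ligands, 9 of 10 Frizzleds, Lrp6 but not Lrp5, all 7 inhibitors, 2 of 3 R-spondins and Axin2. Of the 14 others, 11 were below 1 TPM in both libraries and 3 in a single library. The median over the 42 genes was 1.67 and 1.84 TPM, beside 5.25 and 5.21 over protein-coding genes. At least 10 TPM in both libraries was reached by 9 genes, which were 3 ligands (Wnt7b, Wnt3 and Wnt5a), 3 receptors (Fzd3, Fzd1 and Fzd9) and 3 inhibitors (Sfrp2, Dkk3 and Sfrp1). The share of protein-coding genes at 10 TPM was not computed. By mean level these 9 stood from the 59.7 percentile of protein-coding genes (Fzd9) to the 78.2 percentile (Sfrp2).

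**Figure D1:**
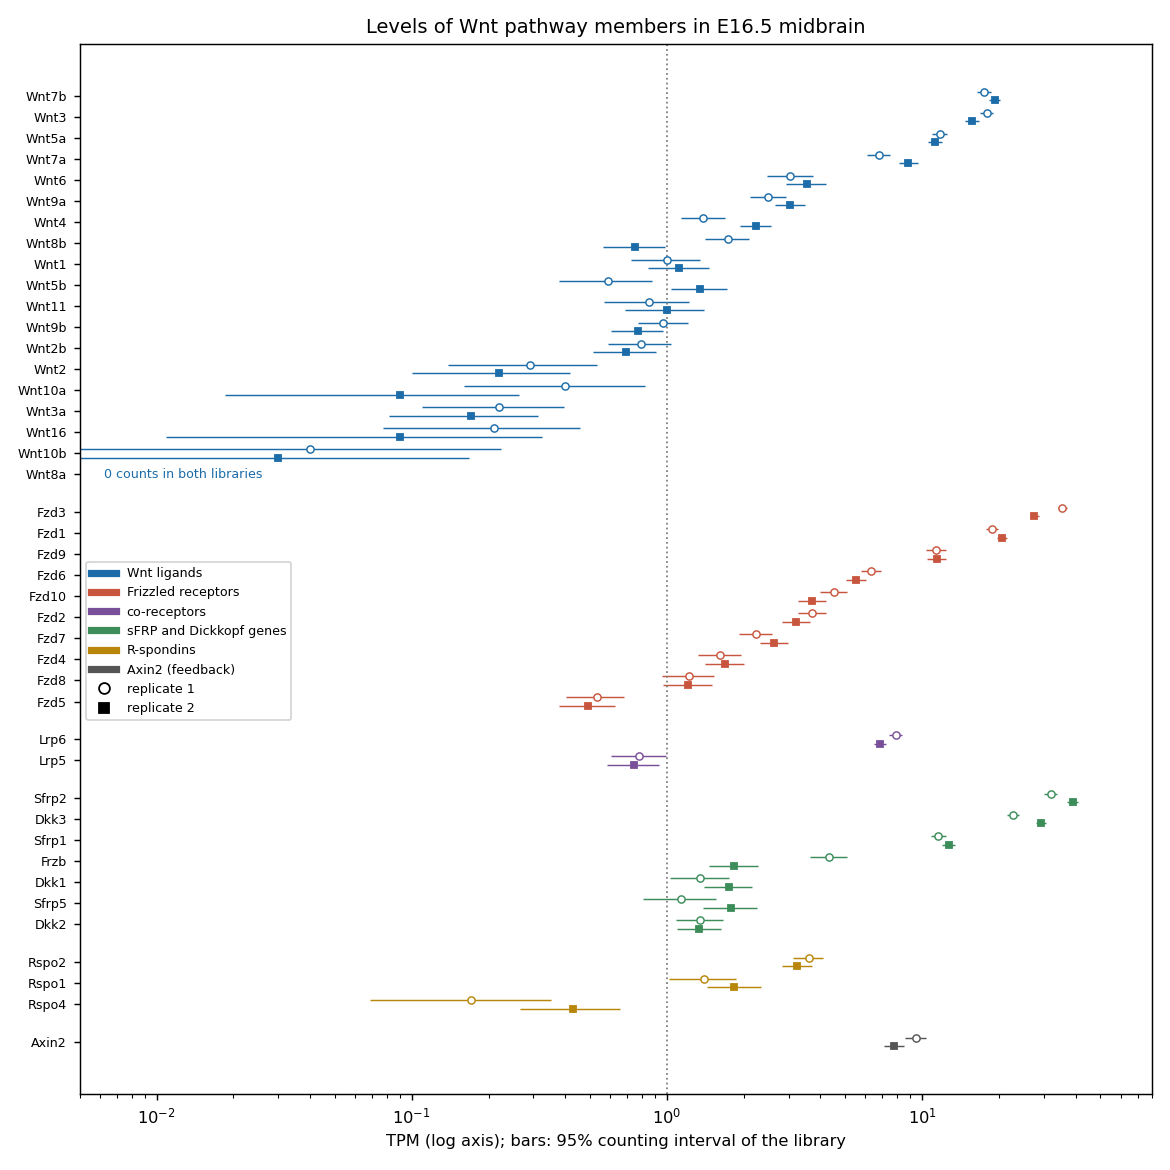
Level of each of the 42 Wnt pathway genes in TPM on a log axis, ordered by mean within each role, with the open circle for replicate 1, the filled square for replicate 2, bars for the 95% counting interval of each library and a dotted line at 1 TPM. The ligands spread from 0 counts for Wnt8a to 19.3 TPM for Wnt7b, while the 7 sFRP and Dickkopf genes of the set lie above 1 TPM in both libraries.

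The stretch before the start site is shown for 4 genes on which the description turns. These are Wnt3, the highest ligand with an entry in the promoter table used, and Sfrp2, the gene with the highest mean of the 42. The others are Axin2, the pathway's own readout, and Wnt8b, the gene that differed most between the pools past the count minimum. The sequences are those of RefSeq on GRCm38.p6, read 5′ to 3′ on the plus strand, which is the strand of all 4 genes. Each line is the 250 bases before the RefSeq start, and capitals mark CG dinucleotides, the site of DNA methylation. They lie at chr11:103773925-103774174 for Wnt3, chr3:83766071-83766320 for Sfrp2, chr11:108920099-108920348 for Axin2 and chr19:44493222-44493471 for Wnt8b.
Wnt3: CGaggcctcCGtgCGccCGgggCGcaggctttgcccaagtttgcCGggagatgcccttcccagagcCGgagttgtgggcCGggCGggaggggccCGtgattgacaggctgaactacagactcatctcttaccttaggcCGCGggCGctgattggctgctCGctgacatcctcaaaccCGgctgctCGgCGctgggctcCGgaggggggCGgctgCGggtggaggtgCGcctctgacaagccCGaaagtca
Sfrp2: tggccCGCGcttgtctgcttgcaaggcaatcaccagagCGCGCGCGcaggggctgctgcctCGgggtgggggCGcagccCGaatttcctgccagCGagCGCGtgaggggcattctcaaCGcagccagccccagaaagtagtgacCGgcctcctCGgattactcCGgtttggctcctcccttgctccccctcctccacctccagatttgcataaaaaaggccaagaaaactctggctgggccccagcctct
Axin2: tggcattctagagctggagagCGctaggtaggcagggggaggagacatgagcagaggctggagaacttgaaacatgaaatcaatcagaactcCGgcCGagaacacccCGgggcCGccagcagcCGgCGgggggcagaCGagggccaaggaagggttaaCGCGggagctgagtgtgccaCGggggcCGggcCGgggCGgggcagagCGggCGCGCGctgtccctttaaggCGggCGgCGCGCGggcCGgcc
Wnt8b: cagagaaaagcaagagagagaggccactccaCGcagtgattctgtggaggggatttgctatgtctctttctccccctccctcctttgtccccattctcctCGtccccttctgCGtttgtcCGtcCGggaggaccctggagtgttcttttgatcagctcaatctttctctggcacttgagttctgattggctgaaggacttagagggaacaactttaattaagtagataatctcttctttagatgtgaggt

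The Wnt3, Sfrp2 and Axin2 stretches hold 22, 16 and 24 CG dinucleotides at a GC content of 68.0%, 63.6% and 69.2%. The Wnt8b stretch holds 5, at a GC content of 48.4%. Windows of 300 bases, 250 before and 50 after a start, were found for 29 of the 42 genes, 32 windows in all since Wnt11 and Wnt5b have several. Their median was 28 CG dinucleotides and 69.5% GC, beside 7 and 52.7% over all 32851 windows of the table. The latter cover 27025 genes and were not limited to protein-coding genes, whereas all genes of the set are protein-coding. Within the set the range ran from 4 CG dinucleotides in an internal start of Wnt5b to 58 in Wnt9a, and the Wnt8b window held 6. The letters that TCF/LEF proteins are known to bind were searched on both strands as the word CTTTGAA, the word CTTTGAT, the word CTTTGTA and the word CTTTGTT. They occurred in 5 of the 32 windows (15.6%), those of Dkk1, Fzd7, Wnt11, Wnt3 and an internal start of Wnt5b, beside 16.9% of all windows. In Wnt3 the match begins 19 bases after the start, outside the stretch printed. The Axin2 window holds none of the 4 words. No promoter window was found for Wnt5a, Wnt7b, Wnt8a, Wnt10a, Fzd2, Fzd3, Fzd6, Fzd8, Lrp5, Lrp6, Sfrp1, Dkk3 and Rspo2.

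Among the ligands, 4 genes held most of the RNA. Wnt7b, which acts on brain vessels and on dendrites, was at 17.5 and 19.3 TPM (18.4 ± 1.24, SD, n = 2). Wnt3, which acts through beta-catenin and guides axons, was at 17.9 and 15.7 TPM (16.8 ± 1.55). Their ranges overlapped, so the libraries do not order them. Wnt5a, best known for signalling without beta-catenin in tissue shape and in dopamine neurons, followed at 11.7 and 11.2 TPM. Wnt7a, the close relative of Wnt7b, was at 6.77 and 8.85 TPM. These 4 did not overlap with any lower ligand and together made up 79.3% and 78.5% of the ligand total. Even the highest of them, Wnt7b, stood at the 67.3 percentile of protein-coding genes.

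Wnt7b (ENSMUSG00000022382.10) spans 85535437 to 85582473 of chromosome 15 in GRCm38, and Wnt3 (ENSMUSG00000000125.5) lies on chromosome 11 from 103774150 to 103817957. Their depth was 1069 and 1371 counts for Wnt7b and 986 and 1008 for Wnt3. The counting intervals were 16.5 to 18.6 and 18.2 to 20.3 TPM for Wnt7b, and 16.8 to 19.1 and 14.8 to 16.7 TPM for Wnt3. Wnt5a (ENSMUSG00000021994.10), on chromosome 14 from 28504750 to 28527448, had 944 and 987 expected counts.

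The next ligands had means between 1 and 4 TPM. Wnt6, a ligand of epithelia, was at 3.05 and 3.53 TPM, just above Wnt9a, known from joints and liver, at 2.50 and 3.04 TPM. Wnt4, known from kidney, gonad and commissural axons, was at 1.39 and 2.23 TPM. Wnt8b, a ligand of the embryonic forebrain, was at 1.73 and 0.75 TPM, and its range overlapped those of Wnt4 and Wnt1. Wnt1, the classic ligand of the midbrain and its border with the hindbrain, was at 1.00 and 1.12 TPM from 42 and 55 counts. Wnt1 therefore sat at the detection threshold, 17.5-fold and 17.2-fold below Wnt7b. From Wnt4 down to Wnt2b each ligand overlapped its neighbour in the order.

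The other ligands had means below 1 TPM, and only the lowest of them were close to the counting limit. Wnt5b was at 0.59 and 1.35 TPM and Wnt11, a ligand of cell movement, at 0.85 and 1.00 TPM, each reaching 1 TPM in replicate 2 only. Wnt9b was at 0.97 and 0.77 TPM and Wnt2b at 0.79 and 0.69 TPM. Below 0.5 TPM in both libraries stood Wnt2, Wnt10a, Wnt3a, Wnt16 and Wnt10b, from 0.03 to 0.40 TPM on 1 to 11 counts. Wnt3a, the ligand of the dorsal midline, had 11 and 10 counts, or 0.22 and 0.17 TPM. Wnt8a, a ligand of gastrulation, had 0 counts in both libraries, which allows a level of up to 0.0984 and 0.0845 TPM (3 counts per library).

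Close relatives and neighbours on the chromosome stood far apart in level. Wnt7b was 2.58-fold and 2.18-fold above Wnt7a, and Wnt5a 19.8-fold and 8.33-fold above Wnt5b. Wnt3 was 81.4-fold and 92.4-fold above Wnt3a, which has 11 and 10 counts. There are 4 pairs of ligand genes that lie close together, and in each pair a single partner held most of the RNA. On chromosome 11, Wnt3 and Wnt9b are 24328 bases apart on opposite strands, and Wnt3 was 18.5-fold and 20.4-fold higher. Also on chromosome 11, Wnt9a and Wnt3a are 16175 bases apart, and Wnt9a was 11.4-fold and 17.9-fold higher. Wnt6 on chromosome 1 lies 6193 bases from Wnt10a, which had 7 and 3 counts, while Wnt6 had 94 and 125. Wnt1 on chromosome 15 lies 11706 bases from Wnt10b, which had 1 count in each library.

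Among the receptors, Fzd3 led. Fzd3, which steers growing axon tracts, was at 35.5 and 27.5 TPM (31.5 ± 5.67) on 2666 and 2405 counts, and held 41.4% and 35.3% of the Frizzled total. Fzd1, a receptor that can act through beta-catenin, followed at 18.8 and 20.6 TPM (19.7 ± 1.28). Fzd9, known from neural precursors, was at 11.4 TPM in both libraries. These 3 did not overlap with each other or with a lower Frizzled, and together made up 76.5% and 76.3% of the total. Fzd3 (ENSMUSG00000007989.6) lies on chromosome 14 from 65192449 to 65262463 and stood at the 76.3 percentile of protein-coding genes.

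The other Frizzleds fell in steps. Fzd6, a relative of Fzd3 that also acts in planar polarity, was at 6.30 and 5.53 TPM, 5.64-fold and 4.97-fold below Fzd3. Fzd10, a receptor of the dorsal neural tube, was at 4.51 and 3.72 TPM. Fzd2, at 3.72 and 3.21 TPM, touched the range of Fzd10. Fzd7 was at 2.23 and 2.64 TPM. Of this closely related trio, Fzd1 was 5.04-fold and 6.41-fold above Fzd2 and 8.41-fold and 7.79-fold above Fzd7. Fzd4, the receptor of the vessel signal Norrin, was at 1.61 and 1.69 TPM. Fzd8 was at 1.22 and 1.21 TPM, and its relative Fzd5, known from the eye, was the single Frizzled not detected, at 0.53 and 0.49 TPM.

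The co-receptor RNA was nearly all Lrp6. Lrp6 was at 7.91 and 6.84 TPM on 1135 and 1275 counts, and Lrp5 at 0.78 and 0.74 TPM on 68 and 75 counts. Lrp6 was 10.1-fold and 9.24-fold higher and held 91.0% and 90.2% of their sum.

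Among the secreted inhibitors, Sfrp2 led, with the highest mean of the 42 genes. Its range overlapped that of Fzd3, which was the higher of the 2 in replicate 1, at 35.5 TPM. Sfrp2, an sFRP of neural precursors and connective tissue, was at 32.0 and 39.0 TPM (35.5 ± 4.96). Dkk3, a divergent Dickkopf whose action on Wnt signalling is less settled than that of its relatives, was at 22.7 and 29.3 TPM (26.0 ± 4.65). Sfrp1, an sFRP of the ventricular zone, was at 11.6 and 12.7 TPM. These 3 did not overlap and held 89.1% and 92.4% of the inhibitor total. Sfrp2 (ENSMUSG00000027996.9) lies on chromosome 3 from 83766321 to 83774316 and stood at the 78.2 percentile of protein-coding genes. Dkk3 (ENSMUSG00000030772.5) lies on chromosome 7 from 112116017 to 112159057.

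The remaining inhibitors were present at low level. Frzb, an sFRP known from cartilage, was at 4.30 and 1.84 TPM. Dkk1, which blocks Lrp5 and Lrp6, was at 1.35 and 1.75 TPM, Sfrp5 at 1.14 and 1.78 TPM and Dkk2 at 1.35 and 1.34 TPM. Dkk1, Sfrp5 and Dkk2 overlapped and cannot be ordered. Of their relatives outside the set of 7, Sfrp4 was at 3.33 and 3.14 TPM and Dkk4 at 0.09 and 0 TPM. Within families, Sfrp2 was 28.0-fold and 21.9-fold above Sfrp5, and Dkk3 16.8-fold and 16.7-fold above Dkk1.

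The 3 R-spondins of the set were low, and Rspo3 was not analysed here. Rspo2 was at 3.59 and 3.24 TPM, Rspo1 at 1.40 and 1.84 TPM and Rspo4 at 0.17 and 0.43 TPM on 7 and 21 counts. Their ranges did not overlap, and Rspo2 held 69.6% and 58.8% of the sum of these 3. Axin2, which beta-catenin induces and which in turn helps to degrade it, was at 9.44 and 7.78 TPM (8.61 ± 1.17) on 474 and 502 counts. Axin2 (ENSMUSG00000000142.11) lies on chromosome 11 from 108920349 to 108950783.

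The summed RNA of ligands, receptors and inhibitors was set against each other. The 19 ligands summed to 67.9 and 70.1 TPM, the 10 Frizzleds to 85.8 and 78.0 TPM and the 7 inhibitors to 74.4 and 87.7 TPM. The Frizzled total was above the ligand total by log2 0.34 and 0.15 (0.24 ± 0.13, SD, n = 2). The inhibitor total was above it by log2 0.13 and 0.32 (0.23 ± 0.13). That total covers the 7 genes of the set only. A list of 14 other antagonists was left out, whose sums of 162 and 159 TPM were above the inhibitor total. Igfbp4 led that list at 99.5 and 97.1 TPM, with Wif1 at 17.6 and 15.6 TPM and Sfrp4 at 3.33 and 3.14 TPM. Between inhibitors and Frizzleds the sign differed, with log2 -0.20 in replicate 1 and 0.17 in replicate 2. Each total rested on its top genes: without the highest gene of each role the log2 ratios turned to -0.0078 for Frizzleds and -0.15 for inhibitors, and without Dkk3 the inhibitor ratio was -0.33. With the median over the genes of a role in place of the sum, the ratios to the ligands were larger, at 1.94 for Frizzleds and 1.51 for inhibitors. The sums are of RNA levels, and protein was not measured.

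**Figure D2:**
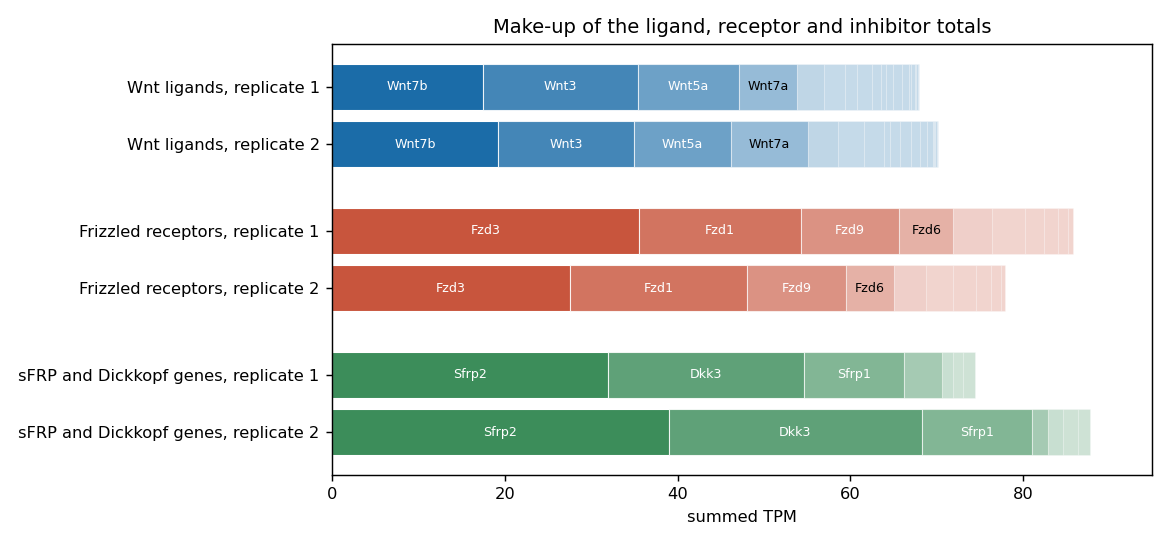
Summed TPM of the Wnt ligands, Frizzled receptors and sFRP and Dickkopf genes in each library, with a segment for each gene in order of mean level and names on segments above 4.9 TPM. Wnt7b, Wnt3, Wnt5a and Wnt7a fill 79.3% and 78.5% of the ligand bar, and Fzd3 takes a larger part of the Frizzled bar in replicate 1.

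Between the pools most of the Wnt genes differed little, and of those with enough counts to compare Wnt8b differed most. Expected counts, scaled for depth, were compared for the 32 genes with a mean count of at least 50. Of these, 17 were higher in replicate 2 and 15 in replicate 1, with a median log2 difference, replicate 2 minus replicate 1, of 0.03. Over all 14412 genes compared, 51.9% were higher in replicate 2, the median was 0.01 and the central 95% ran from -0.45 to 0.55. A 2-fold difference was found for 1 of the 32, Wnt8b, beside 0.645% of all genes, and it lay among the 0.291% that were higher in replicate 1. None of the 32 lay among the 0.354% that were 2-fold higher in replicate 2. At 1.5-fold, 4 of the 32 differed (Wnt4, Wnt8b, Sfrp5 and Frzb), and the share of all genes at 1.5-fold was not computed. All of these lay outside the central 95% of all genes, but that range covers genes of every depth past the minimum. Their mean counts were 53.5 to 151. Among genes with mean counts from 50 to 200, 2.42% differed 2-fold, beside 0.645% of all genes.

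Wnt8b (ENSMUSG00000036961.4, chromosome 19 from 44493472 to 44514273) had 105 counts in replicate 1 and 53 in replicate 2. On the scaled counts it was 2.24-fold higher in replicate 1, a log2 difference of -1.16 with a counting interval from -1.67 to -0.68. The counting intervals of its level, 1.41 to 2.09 and 0.56 to 0.98 TPM, did not overlap. Among genes with mean counts from 50 to 200, 2.42% differed 2-fold in either direction. The diencephalon list moved the same way, with all 9 genes detected, sums of 1291 and 994 TPM and a median log2 difference of -0.25. Most of these sums was Tcf7l2, at 906 and 681 TPM, which is also a nuclear gene of the Wnt pathway. Of the 9 diencephalon genes, all compared, 2 were higher in replicate 2, Barhl2 (0.34) and Foxp2 (0.02). Gbx2 was the 1 gene of that list to differ 2-fold, and was higher in replicate 1 (-1.07). The midbrain list moved the other way, with 8 of 9 genes detected, sums of 347 and 376 TPM, a median of 0.23 and 7 of the 8 compared higher in replicate 2. The part of these lists in the Wnt8b difference was not tested.

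Frzb (ENSMUSG00000027004.3, chromosome 2 from 80411970 to 80447625) had 144 and 83 counts and was 1.96-fold higher in replicate 1, just under the 2-fold rule. Its log2 difference was -0.97 with an interval from -1.39 to -0.58, and -1.22 on the TPM scale. Wnt4 moved the other way by 0.72 (0.38 to 1.08), from 105 to 197 counts, and Sfrp5 by 0.67 (0.09 to 1.29), from 38 to 69 counts. Of the genes under the count minimum, Wnt5b had 24 and 65 counts and Rspo4 7 and 21, log2 differences of 1.24 and 1.34. Both were higher in replicate 2 at low depth. Wnt10a, with 7 and 3 counts, and Wnt16, with 6 and 2 counts, were higher in replicate 1, with log2 differences of -1.28 (-3.99 to 0.73) and -1.56 (-5.11 to 0.72), whose intervals include 0.

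Of the 7 inhibitors, 6 were higher in replicate 2, with a median log2 difference of 0.34, and Frzb alone was higher in replicate 1, beside 51.9% of all genes higher in replicate 2. The intervals of Dkk1 (-0.08 to 0.92) and Dkk2 (-0.40 to 0.45) include 0. Of 11 other Wnt antagonists compared, 5 were higher in replicate 2, with a median of -0.03. Sfrp2 was higher by 0.34 (0.23 to 0.45) and Dkk3 by 0.40 (0.30 to 0.50). Of the Frizzleds, 5 were higher in each library with a median of -0.03, and Fzd3 was lower in replicate 2, at -0.33 (-0.41 to -0.25). The ligands also divided 5 and 5, with a median of 0.03. Alongside, the astrocyte list was higher in replicate 2 (6 of 8 detected, none at 0 in both libraries, sums of 580 and 976 TPM, median log2 difference 0.69). Of its 6 genes compared 5 were higher in replicate 2, and Slc1a2 was lower (-0.27). The cell-cycle list was lower in replicate 2 (6 of 6 detected, 193 and 151 TPM, median -0.38). The radial glia list was divided (7 of 7 detected, 1800 and 2091 TPM, median -0.24), with 3 of 7 higher in replicate 2. So was the mural and meningeal list (8 of 10 detected, 319 and 340 TPM, median -0.03), with 4 of the 9 compared higher. The list for bone and osteoclasts was higher in replicate 2 (5 of 12 detected, 77.8 and 118 TPM, median 0.95 over the 7 compared), with Bglap at 0 in replicate 1. Of those 7 genes 5 were higher in replicate 2, whereas Col2a1 (-0.56) and Mmp9 (-0.05) were lower. In the oligodendrocyte precursor list all 5 genes were higher in replicate 2 (median 0.31). So were 5 of 6 microglia genes (0.16), 4 of 5 ependymal genes compared (0.19) and 4 of 6 neuron genes (0.10). The endothelial, choroid plexus and erythroid lists had medians of -0.11, -0.14 and -0.16, with 3 of 7, 3 of 7 and 1 of 6 genes higher in replicate 2. The part of these lists in the differences of Sfrp2, Dkk3, Fzd3 and Frzb was not tested.

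**Figure D3:**
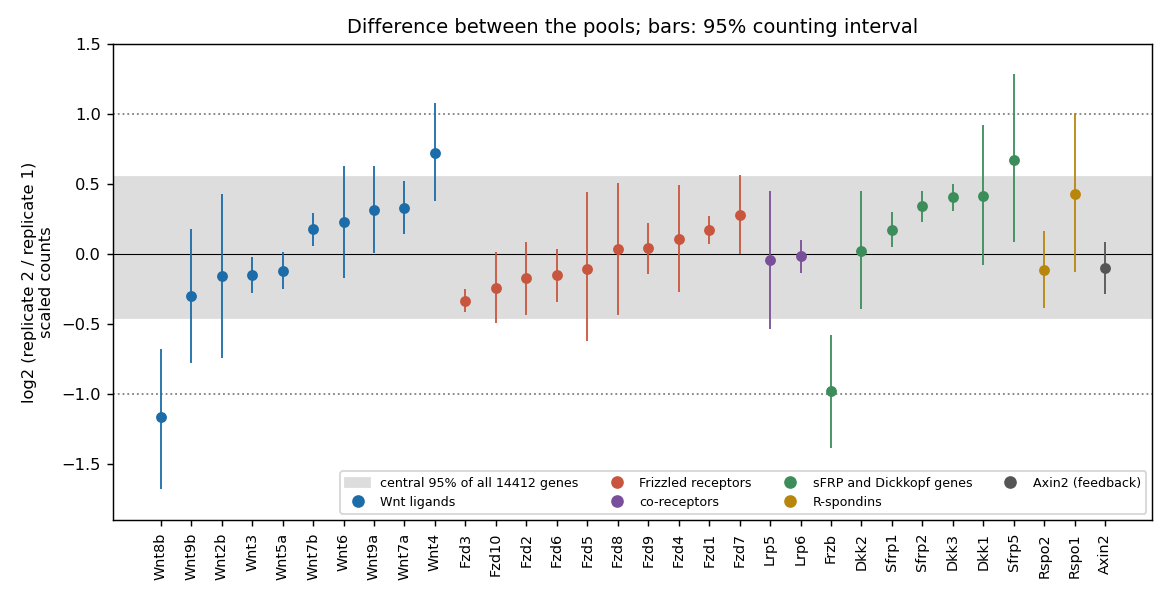
Log2 difference of scaled counts, replicate 2 minus replicate 1, for the 32 Wnt pathway genes with a mean count of at least 50, grouped by role, with bars for the 95% counting interval, a grey band for the central 95% of all 14412 genes and dotted lines at 2-fold. Wnt8b lies past the lower line at -1.16, Frzb just inside it at -0.97, and Wnt4 and Sfrp5 lie above the band.

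For a few of the genes the transcript tables add which form of RNA was counted. Of the 42 genes, 22 had 1 annotated transcript and 20 had several, and transcripts were described only if their length was the same in both annotation releases used. Sfrp2 was almost wholly its coding transcript of 2003 bases, at 98.7% and 100% of the gene, and Wnt7a mostly a single coding transcript, at 99.5% and 92.9%. The longest Lrp6 form, of 9368 bases and 23 exons, held 81.6% and 92.3%. Axin2 was more mixed, with its longest coding form of 4260 bases at 49.8% and 60.2% and a processed transcript of 2045 bases at 18.2% and 17.7%.

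Frzb was divided between its coding form of 3149 bases, with 113 and 71.1 expected counts, and a processed transcript of 830 bases, with 31.2 and 11.9. Both forms had fewer counts in replicate 2, and the processed form made up 53.5% and 41.2% of the gene's TPM. On the counts of the coding form alone, chosen after seeing the data, the difference between the pools was log2 -0.85. Wnt6 held a similar mixture at a lower share, with a form that retains an intron at 26.5% and 28.6%. Lrp6 and Axin2 also differed more between the pools in TPM, by log2 -0.21 and -0.28, than in counts, by -0.02 and -0.10.

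Some of the genes share sequence with an overlapping gene. The exons of Sfrp2 overlap those of the antisense gene Gm26771 on 347 bases, 16.1% of the Sfrp2 exons, and Gm26771 was listed at 5.68 and 6.48 TPM. The strand of the libraries is not stated in the sources used here, so reads from Sfrp2 and Gm26771 cannot be told apart there. Fzd5 overlaps Gm38058 on 17.8% of its exon bases, and Wnt11 overlaps the pseudogene Gm8398 on 8.80%, with both partners at or below 0.05 TPM. Wnt7b and Wnt5a overlap antisense genes on 6.61% and 4.58% of their exon bases, whose levels were 0.53 TPM or less. The related Fzd1, Fzd2 and Fzd7 share at most 1.90% of their 31-base words, so that their levels are largely separate measurements.

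Most genes of the wider pathway were detected. Of 86 further Wnt pathway genes, 76 reached 1 TPM in both libraries, beside 62.1% of protein-coding genes, and 80 passed the count minimum. None of the 80 differed 2-fold between the pools, beside the 0.645% of all genes, and their median log2 difference was -0.06, with 30 of the 80 higher in replicate 2, beside 51.9% of all genes. Of the genes for making and releasing Wnts 5 of 6 were detected. The highest were Tmed2 at 293 and 282 TPM, the Wnt carrier Wls at 53.8 and 46.3 TPM and Porcn, which attaches the lipid, at 38.4 and 39.2 TPM. All 21 cytoplasmic genes were detected, led by Ctnnb1, which encodes beta-catenin, at 363 and 346 TPM and the kinases Csnk1a1 at 215 and 196 TPM and Csnk1e at 182 and 157 TPM. All 13 nuclear genes were detected, with Tcf7l2 at 906 and 681 TPM, Ctnnbip1, an inhibitor of beta-catenin, at 91.7 and 91.0 TPM and Lef1 at 58.8 and 68.6 TPM.

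The partners of the 42 genes at the cell surface were mixed. Of 13 other receptors and co-factors 11 were detected, with Tspan12, the Fzd4 partner, at 49.7 and 51.5 TPM, the proteoglycan Gpc3 at 41.7 and 41.1 TPM and Ptk7 at 23.9 and 22.0 TPM. Tspan12 thus stood far above its receptor Fzd4. Of 5 R-spondin receptors and ligases 3 were detected, with the ligase Znrf3 at 7.62 and 6.42 TPM, Lgr4 at 6.0 and 5.69 TPM and Lgr5 at 1.10 and 1.16 TPM. Of 14 other antagonists 10 were detected, led by Igfbp4 at 99.5 and 97.1 TPM, Wif1, which binds Wnts, at 17.6 and 15.6 TPM and Sostdc1 at 11.2 and 10.1 TPM, while Cer1 was at 0. Of 10 planar polarity genes 9 were detected, with Vangl2 at 36.6 and 36.3 TPM, Celsr2 at 28.6 and 23.6 TPM and Daam1 at 25.4 and 24.9 TPM. Of 12 feedback and target genes besides Axin2, 10 were detected, with Lef1, Myc at 42.5 and 46.5 TPM and Nkd1 at 29.5 and 23.3 TPM the highest.

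**Figure D4:**
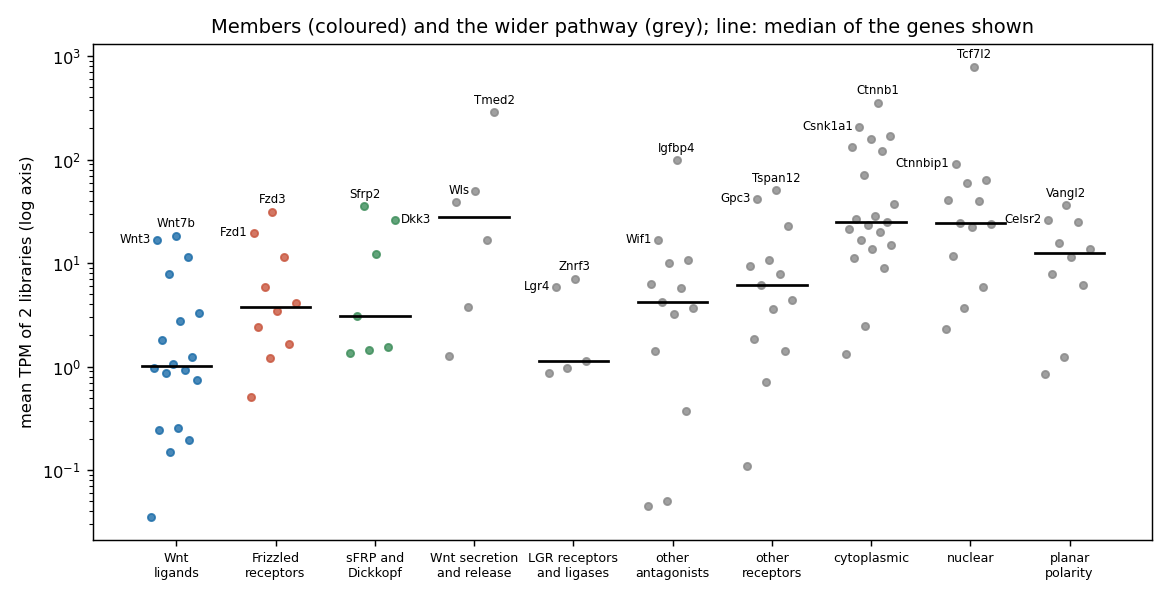
Mean TPM of the 2 libraries on a log axis for the Wnt ligands, Frizzled receptors and sFRP and Dickkopf genes (coloured) and for 7 lists of other Wnt pathway genes (grey), with a line at the median of the genes shown, names for the highest 2 of each list and genes at 0 left out. The ligands reach lowest, and Tcf7l2 and Ctnnb1 stand at the top.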

How the data were processed

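Total RNA of the midbrain was measured in 2 libraries, with a gene table and a transcript table each. Per the deposited readme, the reference was mm10 with GENCODE M4 and spike-in sequences. The aligner was not given in the sources used here, nor was the quantifier.

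Per the file headers, the deposited expected count estimates how many reads came from a gene or transcript and is not normalized. The deposited TPM is corrected by the authors for effective length and scaled to a fixed total. The deposited FPKM is scaled by effective length and library size, and the deposited isoform share is given as a percent of its gene's TPM. A posterior mean TPM is also deposited.

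Each table has 69691 entries, of which 97 are spike-ins (1.49% and 2.23% of counts) and 26248 are named by a number only and held 12 counts per library. Symbols and coordinates came from GENCODE M21 on GRCm38, the assembly of mm10, joined by Ensembl identifier. No symbol was found for 884 identifiers, with 0.197% and 0.183% of counts. Of the genes with a count, 73.2% and 72.9% had a whole one (within 0.005).

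Detection meant at least 1 TPM in both libraries. For differences between pools, 0.5 was added to expected counts, which were scaled with edgeR 4.0.16 (TMM, on rounded counts, R 4.3.3), and genes had a mean count of at least 50. A difference of 2-fold was called, with no test, since 2 libraries of 1 group leave none. Size factors from DESeq2 1.42.0 were an alternative, beside other thresholds and units. Counting intervals are exact at 95% (Poisson for levels, binomial for ratios), and cover counting error only, as they count reads and not molecules. The procedure was tested on simulated data. Words of 31 bases were compared over annotated transcripts. Further steps used scipy 1.17.1, pandas 2.3.3, numpy 2.4.6 and matplotlib 3.10.9 in Python 3.11.15.

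The 42 genes and all lists were chosen with earlier results of these data known. Named are all genes of the set, and the 3 highest of each pathway list. Promoter stretches were chosen after levels were seen.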

Additional observations from a re-analysis of the deposited data

How the results depend on the processing

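Of the 42 genes, 28 were detected, between 29 and 30 when either replicate was left out, 34 at a threshold of 0.5 TPM, 19 at 2 TPM, 28 with posterior mean TPM and 20 with FPKM. The Frizzled to ligand ratio, log2 0.24, ranged from 0.15 to 0.34 when either replicate was left out, became 1.94 when medians over the genes of a role replaced sums, and reversed to -0.0078 without the highest gene of each role. The inhibitor to ligand ratio, log2 0.23, ranged from 0.13 to 0.32 when either replicate was left out, became 1.51 with medians, and reversed to -0.15 without the highest gene of each role and to -0.33 without Dkk3. The median ligand was at 0.97 and 1.00 TPM. The single gene at 2-fold, Wnt8b, was joined by Frzb with the ratio of deposited TPM and with that of posterior mean TPM (2 genes each). It was joined by Wnt5b and Rspo4 at a mean count of at least 10 (3 of 37 genes compared). With no filter these and Wnt10a and Wnt16 were added (5 of 41), and at 1.5-fold Wnt4, Sfrp5 and Frzb (4 of 32). Shares of all genes were not computed at these other settings, so these counts have no background beside them. With DESeq2 size factors or with 2 added to the counts Wnt8b stayed the only gene. The median difference between the pools, 0.03, was -0.011 with the ratio of deposited TPM. Of 29 genes followed singly, 29 kept their value within the counting interval with DESeq2 size factors and 28 with posterior mean TPM, where Lrp6 moved to -0.18. A pool cannot be left out of a difference between 2 pools. No paired analysis was possible because there is a single group. Depth limits what can be said of Wnt10a, Wnt10b, Wnt16, Wnt2, Wnt3a and Wnt8a, which had 11 counts or fewer.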
